A study of Drosophila melanogaster with 5 samples.

Results

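The genes of the morphogenetic furrow and of founder photoreceptor choice were followed across 5 expression arrays of Drosophila eye-antennal discs and disc tumors. The list held 8 genes, chosen by name: hh, ato, h, emc, da, sca, sens and ro. On chromosome arm 3R lie hh (CG4637), ato (CG7508) and ro (CG6348), on 3L emc (CG1007) and sens (CG32120), and on 2L da (CG5102). A probe set, the group of short probes that reads 1 transcript, named exactly 1 gene for 6 of them, and h and sca were not analysed here for want of such a probe set. The 6 measured genes were among 11981 genes with a probe set, and all 6 were among the 7850 genes past the filter on low values (highest of the 5 levels at or above 6.36 log2). That filter passed sens and ro through some arrays only: 4 of 5 arrays read sens at or above 6.36, and 3 of 5 read ro there.

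There was 1 array per group. The groups were Ras-overexpressing tumors that also carried Sras mutant 1 or Sras mutant 2, Ras-overexpressing tumors that also carried a scrib mutant (the design's positive control), tumors overexpressing only Ras, and WT control discs, labelled 79E. The arrays are called Sras mutant 1, Sras mutant 2, scrib, Ras and WT control below, and all but WT control carry Ras overexpression. Larvae of the third instar were raised at 25 °C, and tumor clones were marked with GFP by MARCM, a recombination method that labels the clone and leaves its neighbours unlabelled. The labels give no lesion for the Sras or scrib mutants, no driver for the Ras transgene and no number of pooled discs, and they do not say whether unmarked neighbouring cells were removed. The study's title is about how senescence caused by an oncogene becomes pro-tumorigenic, and it names none of these eye genes.

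The furrow is the groove that sweeps across the eye field and leaves rows of differentiating photoreceptors behind it. Hedgehog, secreted by the photoreceptors already formed, drives it forward. Ahead of it the bHLH gene ato is switched on broadly, then narrowed to single cells that become R8, the founder photoreceptor of each ommatidium. Daughterless (da) is the bHLH partner of Atonal. Extra macrochaetae (emc) is an HLH protein without a basic region that ties up such partners. Senseless (sens), a zinc finger protein, fixes the R8 fate, and the homeobox gene rough (ro) shuts ato off in the cells around R8 and acts in R2 and R5.

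No group had a second array, so no test, error or p-value could be computed, and each difference below is between single arrays. Levels are log2 after quantile normalization, and a difference of 1 log2 is 2-fold. The only guide to spread was the difference between both Sras arrays, which had an SD of 0.24 log2 over the 7850 genes and also holds whatever truly differs between those mutants. In bulk RNA, fewer cells of a type and less RNA per cell cannot be told apart. The tissue label was looked at with retinal determination genes. All 8 of those past the filter read above 6.36 in all 5 arrays, with so in scrib the lowest at 6.59 and eya there at 6.66. The filter value is the 40th percentile and had already picked these genes, so this is a weak check, most of all for scrib. Of 9 antennal and head genes, 8 read above 6.36 in all 5 arrays, and ct read 5.96 in WT control and 6.01 in Ras.

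RNA of other larval tissues differed strongly between arrays. The median level of 8 salivary gland markers was 6.68 in Sras mutant 1, 9.11 in Sras mutant 2 and 6.26 in scrib, against 14.25 in Ras and 14.63 in WT control. All 8 of 8 listed had a probe set, their summed level was 9.98, 12.43 and 9.49 log2 in the mutant arrays, against 17.12 in Ras and 17.35 in WT control, and 1, 0 and 5 of them read below the filter value in the mutant arrays. The median of 9 of 12 muscle markers was 7.12, 6.64 and 6.76 in the same 3 arrays, against 10.86 in Ras and 10.79 in WT control. Relative to Ras, 5 of 8 fat body markers had medians of −2.86, −1.74 and −3.05 in the mutant arrays. The 6 of 8 brain neuron markers past the filter ran closer, with medians of 6.70, 6.69 and 6.74, against 6.84 in Ras and 6.93 in WT control, and 6 glia markers had medians of 9.53, 9.56 and 9.17, against 10.11 in Ras and 10.03 in WT control. The Ras array also stood apart in control probe sets: the 3′ ends of 3 housekeeping transcripts exceeded their 5′ ends by a mean of 1.35 log2 in Ras, against 0.88 to 0.95 in the other 4 arrays. The part of either in the results below was not tested.

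**Figure D1:**
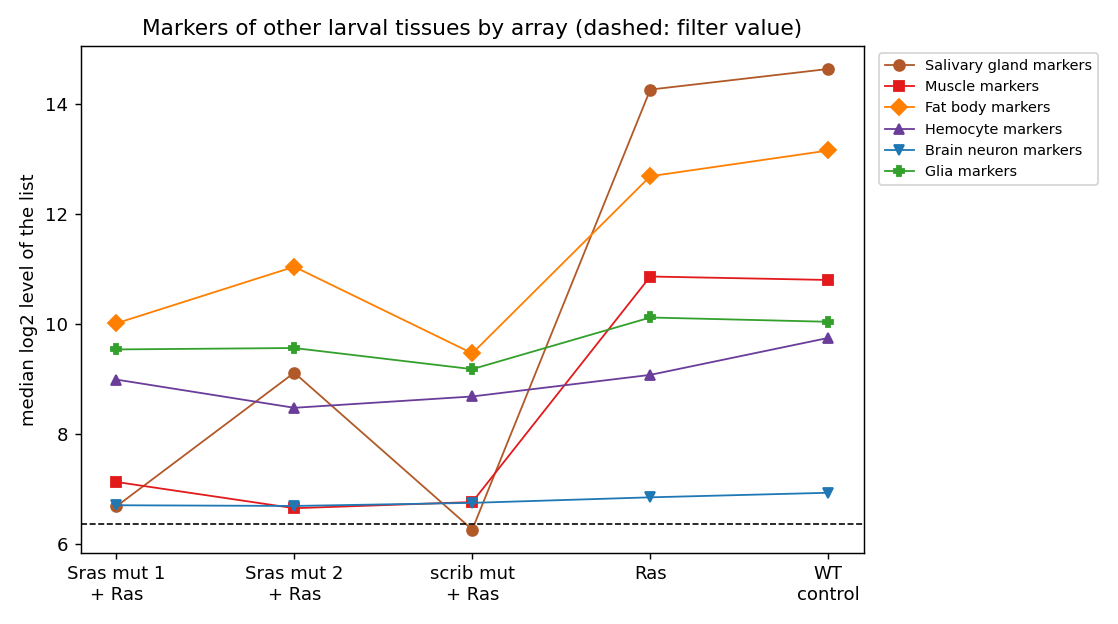
Median log2 level (vertical axis) of 6 marker lists of other larval tissues in each of the 5 arrays (horizontal axis), with lines joining the points of 1 list to guide the eye. Salivary gland, muscle and fat body markers sit lower in the 3 mutant arrays than in Ras and WT control, and salivary gland markers differ between Sras mutant 1 (6.68) and Sras mutant 2 (9.11).

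The signal that drives the furrow, hh, read 9.29 in Sras mutant 1, 9.29 in Sras mutant 2 and 8.05 in scrib, against 8.83 in Ras and 8.71 in WT control. On this scale both Sras arrays were highest and scrib was lowest, while Ras and WT control lay 0.12 apart, within the guide to spread. As a further scale, each array was centred on 17 retinal determination and antennal genes, called the identity-gene scale below; those genes differ between the arrays themselves, and the median of all genes on it was −0.59, −0.67 and 0.94 from Ras in Sras mutant 1, in Sras mutant 2 and in scrib. From Ras, hh lay at 0.46 and 0.47 in Sras mutants 1 and 2, and 19.6% and 19.2% of all kept genes lay as high. These values became −0.19 and −0.25 on the identity-gene scale, so the side of Ras on which hh lies depends on the scaling. In scrib, hh lay −0.77 from Ras, short of 2-fold, and −0.09 on the identity-gene scale.

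The proneural gene ato read 9.68 in Sras mutant 1, 9.77 in Sras mutant 2 and 7.27 in scrib, against 8.33 in Ras and 9.28 in WT control. On this scale its order was Sras mutant 2, Sras mutant 1, WT control, Ras and scrib, and every step except that between both Sras arrays (0.08) was wider than the guide to spread. From Ras, ato was 2.55-fold higher in Sras mutant 1 (1.35 log2) and 2.70-fold higher in Sras mutant 2 (1.43 log2), and 1.89% and 2.27% of kept genes lay as high. Both were under 2-fold on the identity-gene scale (0.66 and 0.69). From WT control the same arrays lay 0.40 and 0.48 higher, under 2-fold, but −0.44 and −0.42 on the identity-gene scale. Ras itself was −0.95 from WT control. In scrib ato was −1.07 from Ras, 2.09-fold lower (−0.57 on the identity-gene scale and −1.44 as deposited), and −2.02 from WT control, 4.05-fold lower.

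Of the 6 genes, ato lay furthest from WT control in Ras. Its −0.95 lay just short of 2-fold, and 1.57% of kept genes lay as low, whereas hh (0.12), emc (0.09), da (−0.07) and sens (−0.16) lay within the guide to spread and ro (0.49) lay above it. Over the scalings, filters and probe set rules tried, ato stayed between −1.10 and −0.82 in this comparison. Ras minus WT control medians were −0.20 for salivary gland, 0.06 for muscle, −0.19 for fat body, −0.09 for brain neuron and 0.26 for glia markers. All 10 hemocyte markers lay below WT control, from −2.29 to −0.01, with a median of −0.77. Of these 10, 4 were at least 2-fold lower, among them PPO1 (−2.27) and PPO2 (−2.29), against 1.36% of kept genes. The part of these markers, and of the higher 3′ to 5′ gap of the Ras array, in the ato difference was not tested.

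**Figure D2:**
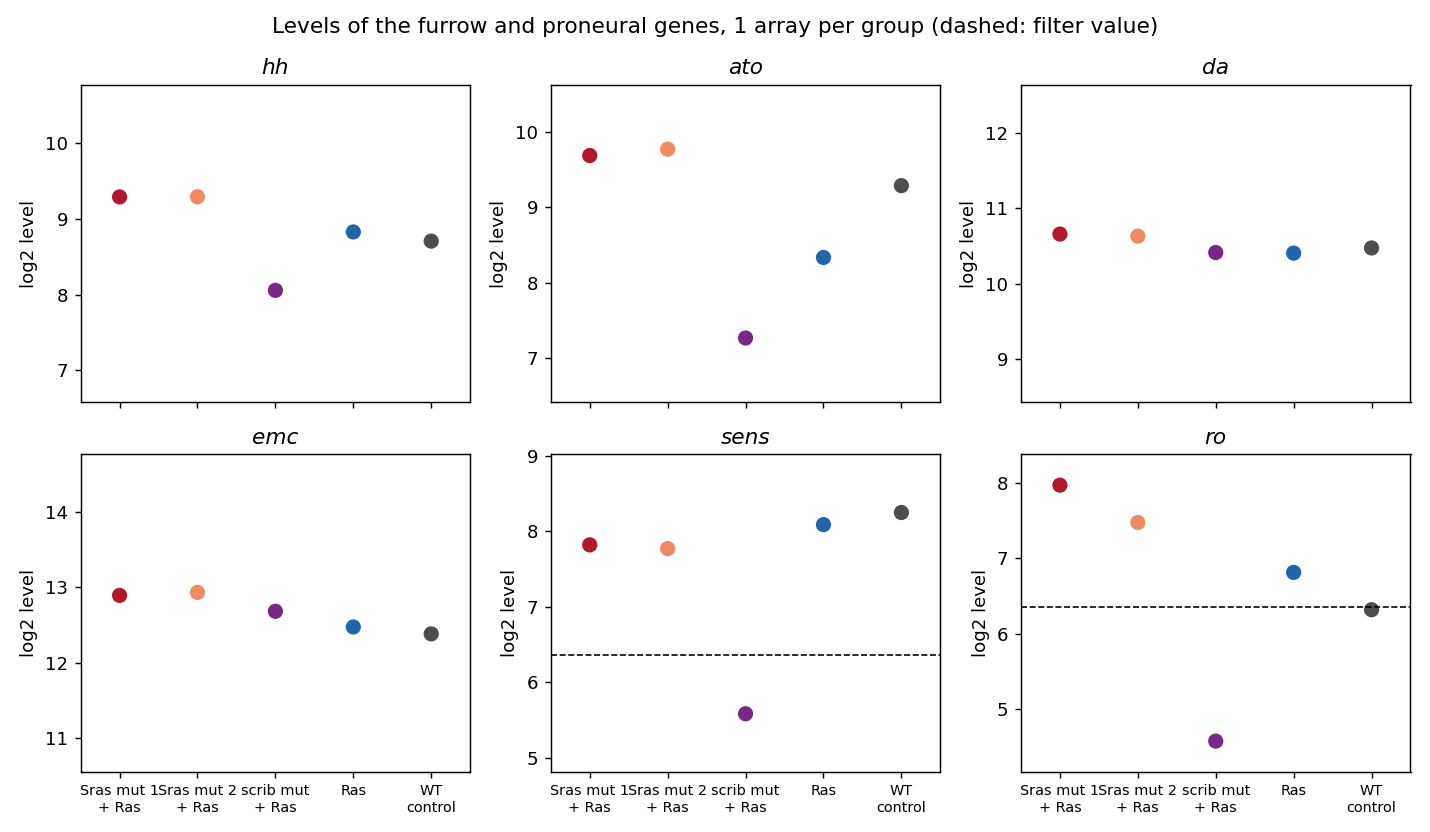
Log2 level (vertical axes, all of equal span) of the 6 measured genes in the 5 arrays (horizontal axes), 1 point per array with no replicates, and the filter value of 6.36 as a dashed line where it falls in the panel. The genes hh, ato, sens and ro are lowest in scrib, ato in Ras (8.33) lies below WT control (9.28), and da and emc are nearly level.

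The general bHLH partner da read 10.66 in Sras mutant 1, 10.63 in Sras mutant 2 and 10.41 in scrib, against 10.41 in Ras and 10.47 in WT control. Its 5 arrays spanned 0.25 log2, the narrowest range of the 6 genes. The antagonist emc read 12.89, 12.93 and 12.68 in the same 3 mutant arrays, against 12.47 in Ras and 12.38 in WT control. Its span was 0.55 log2, and no array pair of da or emc reached 2-fold. From Ras, da lay at 0.25 and 0.23 and emc at 0.42 and 0.46 in Sras mutants 1 and 2. The median of all kept genes was 0.11 and 0.08 there, and both genes lay below 0 on the identity-gene scale (−0.43 and −0.49 for da, −0.35 and −0.36 for emc).

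The R8 gene sens read 7.82 in Sras mutant 1, 7.77 in Sras mutant 2 and 5.59 in scrib, against 8.09 in Ras and 8.25 in WT control. Scrib alone lay below the filter value, and Sras mutant 2 and WT control, the lowest and highest of the other 4, lay 0.48 apart. Both Sras arrays lay slightly below Ras, at −0.27 and −0.32, and on the identity-gene scale both were at least 2-fold lower, with −1.09 in Sras mutant 2. In scrib sens was −2.50 from Ras, with 5.77% of kept genes as low, and −1.73 when levels below the filter value were raised to it. The gene is also needed in the embryonic salivary gland. The median of the salivary gland markers lay −2.74 in Sras mutant 1 from Sras mutant 2, and sens differed by 0.05 between them. The part of salivary gland RNA in the sens levels was not tested.

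The gene ro read 7.97 in Sras mutant 1, 7.47 in Sras mutant 2 and 4.58 in scrib, against 6.81 in Ras and 6.32 in WT control. It spanned 3.39 log2 by its readings but 1.61 with levels raised to the filter value, against 2.50 for ato and 1.89 for sens on that footing. From Ras, ro was 2.23-fold higher in Sras mutant 1 (1.15 log2, but 0.30 on the identity-gene scale) and 1.58-fold higher in Sras mutant 2 (0.66 log2, but −0.21 on the identity-gene scale). It was the only one of the 6 that differed between the Sras arrays by more than the guide to spread (0.49), and 1.36% of kept genes lay as high in that difference. From WT control, both Sras arrays were at least 2-fold higher (1.65 and 1.16, with WT control itself below the filter value), and ro still lay above WT control on the identity-gene scale (0.62 and 0.12). In scrib ro was −2.23 from Ras, but with levels raised to the filter value that difference shrank to −0.45, so only its direction is measured. Both scrib and WT control read below the filter value, and no fold is given between them.

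Counted over the 6 genes, Sras mutant 1 had 2 genes at least 2-fold above Ras (ato and ro) and 0 below it, where 4.04% of all kept genes were higher and 9.77% lower. Sras mutant 2 had 1 gene above Ras (ato) and 0 below it, against 4.96% higher and 9.95% lower among all kept genes. In scrib 0 genes lay above Ras and 3 below it by their readings (ato, sens and ro), against 9.26% higher and 14.2% lower. With levels raised to the filter value the count was 2 (ato and sens), against 11.5% lower. Ras against WT control had 0 of the 6 genes past 2-fold, where 0.701% of kept genes were higher and 1.36% lower. The comparisons with Ras, and Ras minus WT control, share the 1 Ras array, so they are not independent of each other. The median of the 6 genes was 0.44 and 0.46 in Sras mutants 1 and 2 and −0.92 in scrib (−0.61 with levels raised to the filter value), beside medians of all kept genes of 0.11, 0.08 and 0.12.

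**Figure D3:**
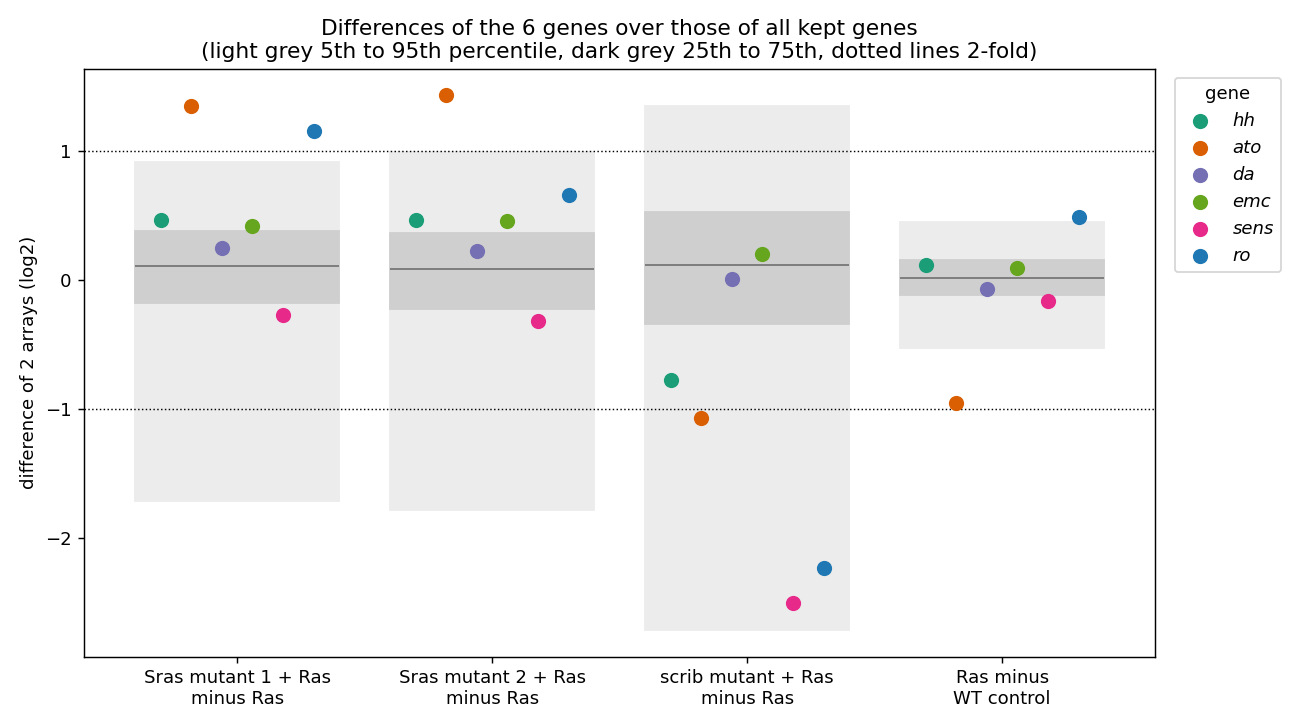
Difference between 2 arrays in log2 (vertical axis) for the 6 genes (coloured points) in 4 comparisons (horizontal axis), over the spread of all 7850 kept genes, with light grey from the 5th to the 95th percentile, dark grey from the 25th to the 75th, and dotted lines at 2-fold. In both Sras comparisons ato lies above the light band, in Ras minus WT control it lies below it, and in scrib minus Ras the points of ato, sens and ro lie below −1, with sens and ro read below the filter value in scrib.

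Setting each gene against da within the same arrays removes any shift shared by a whole array, so centring cannot move it. It does not remove differences in RNA of other larval tissues, and it rests on da alone. Relative to da, ato in the Sras arrays lay 1.10 and 1.21 log2 from Ras, and sens −0.52 and −0.54. From WT control these values were 0.21 and 0.33 for ato and −0.61 and −0.64 for sens. In Ras, ato relative to da was itself −0.88 from WT control, so most of its gap from Ras goes with the low reading there. The genes ato and sens parted, and their differences from Ras were 1.62 and 1.75 log2 apart in Sras mutants 1 and 2. Taken from WT control, the differences of ato and sens were 0.83 and 0.96 apart, and in Ras ato lay −0.79 from sens in that comparison. In scrib, relative to da, hh lay at −0.78, ato at −1.07, ro at −2.24 and sens at −2.51 from Ras. On the values as deposited these were −0.98, −1.47, −2.37 and −2.60. Both ro and sens read below the filter value in scrib, so the 4 differences have no settled order. Relative to da, emc lay 0.17 and 0.23 above Ras in Sras mutants 1 and 2 and 0.20 in scrib.

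The Sras arrays were then compared directly with scrib, which leaves out the Ras array. On the quantile scale all 6 genes were higher in Sras mutant 1 (on the identity-gene scale emc lay at −1.35, da at −1.32 and hh at −0.10), and 4 of them at least 2-fold, where 8.03% of kept genes were higher and 4.85% lower. Those 4 were ro (3.39), ato (2.42), sens (2.24) and hh (1.24), and 0.535%, 1.59%, 1.92% and 6.32% of kept genes lay as high. In Sras mutant 2 the same 4 genes were at least 2-fold higher (2.89, 2.50, 2.19 and 1.24), against 8.1% of kept genes higher and 4.28% lower. With levels raised to the filter value, ro lay at 1.61 and 1.11 and sens at 1.46 and 1.41, still past 2-fold. On the identity-gene scale, ato (1.24 and 1.26), ro (1.77 and 1.26) and sens (0.70 and 0.62) stayed higher, and hh lay at −0.16 in Sras mutant 2. In these comparisons salivary gland markers had medians of 0.79 and 3.11, fat body markers of 0.54 and 1.20, muscle markers of 0.60 and 0.14, brain neuron markers of 0.25 and 0.47, and glia markers of 0.42 and 0.10. Of the 6 glia markers, 4 lay above scrib and 2 below it in each comparison. The highest was repo (2.59 and 2.28) and the lowest moody (−0.69 and −0.33). The part of the markers of all these tissues was not tested.

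Against WT control, 1 of the 6 genes (ro) was at least 2-fold higher in each Sras array and 0 were lower, where 5.75% and 6.6% of kept genes were higher and 10.5% and 10.8% lower. In scrib 3 genes lay at least 2-fold lower than WT control by their readings and 0 higher, against 14.8% of kept genes lower and 10.5% higher. With levels raised to the filter value the count was 2 (ato and sens), against 12.1% lower, since ro was below that value in both arrays. The 2 Sras arrays did not differ 2-fold in any of the 6 genes, where 0.178% of kept genes were higher in Sras mutant 1 and 0.497% lower.

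Genes whose 5-array pattern lay nearest were found by the root mean square difference between profiles centred on their own means. For ro the 3 nearest named genes were meru (0.13 log2), the retinal determination gene so (0.20) and rdo (0.21), and 5 kept genes lay within 0.25. Both ro and meru read below the filter value in scrib (4.58 and 4.11) and in WT control (6.32 and 6.01), so this match rests partly on such levels. For ato they were the zona pellucida domain gene tyn (0.24), the bHLH gene net (0.30) and Dtg (0.33), with 3 kept genes within 0.25, so its pattern had few close matches. Their gap between Ras and WT control was smaller than that of ato: tyn read 9.81 in Ras and 10.05 in WT control, net 7.90 and 7.93, and Dtg 10.70 and 10.91. For sens they were pdgy, Pgant2 and mdu (0.10, 0.10 and 0.11), with 29 genes within 0.25, and sens (5.59) and Pgant2 (6.15) read below the filter value in scrib. For hh they were MYPT-75D, tsl and PMCA (0.04, 0.06 and 0.07), with 168. Genes da and emc spanned under 1 log2 and were not matched.

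Genes that receive and transduce the Hedgehog signal gave few calls. Of 10 past the filter, 1 was at least 2-fold above Ras in each of the 3 mutant arrays, where 4.04%, 4.96% and 9.26% of kept genes were higher, and 0 were lower (9.77%, 9.95% and 14.2% of kept genes). The receptor gene ptc, itself a target of the pathway, lay at 1.31 and 1.27 from Ras in Sras mutants 1 and 2 and at 0.82 in scrib. It read 7.94, 7.90 and 7.45 in those arrays, against 6.63 in Ras and 5.89 in WT control. The co-receptor gene boi lay at 0.85, 0.93 and 1.69, and the transcription factor gene ci at 0.79, 0.84 and 0.81. Their list had medians of 0.41, 0.49 and 0.26, beside the medians of all kept genes of 0.11, 0.08 and 0.12. These list medians became −0.24, −0.24 and 1.14 on the identity-gene scale. The 7 measured genes of the Dpp and Wingless list (dpp, tkv, put, Mad, Med, shn and Dad) are all of the Dpp pathway, so it says nothing of Wingless. The ligand gene dpp, which Hedgehog induces in the furrow, lay at 1.00, 1.14 and 0.44. The medians of this list were 0.47, 0.54 and 0.44 (−0.20, −0.19 and 1.18 on the identity-gene scale).

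Notch signalling narrows ato to single cells through the Enhancer of split genes. Of 14 genes of the Notch list past the filter, 0 lay 2-fold from Ras in either Sras array, where 4.04% and 4.96% of kept genes were higher and 9.77% and 9.95% lower. In scrib 4 were at least 2-fold lower and 0 higher, against 14.2% and 9.26% of kept genes, and 13 of the 14 lay below 0. The repressor gene E(spl)mdelta-HLH read 11.35 in Sras mutant 1, 11.03 in Sras mutant 2 and 8.15 in scrib, against 10.69 in Ras and 10.51 in WT control. Its −2.53 from Ras in scrib stood beside −2.14 for E(spl)m4-BFM, −1.56 for the ubiquitin ligase gene neur, and −1.27 for E(spl)malpha-BFM. The other members of the complex ran from E(spl)m7-HLH at −0.74, through E(spl)m5-HLH (−0.59), E(spl)m2-BFM (−0.48) and E(spl)mbeta-HLH (−0.30), to E(spl)m3-HLH at 0.54. The list's medians were 0.16 and 0.10 in Sras mutants 1 and 2 and −0.53 in scrib (−0.51, −0.62 and 0.36 on the identity-gene scale), so the median in scrib does not hold its sign. The small Bearded-family genes Tom (0.93 and 0.98) and Brd (0.75 and 0.65) were the highest of the list above Ras in the Sras arrays. Both were also lower in Ras than in WT control (−0.32 and −0.36).

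The list of other proneural bHLH genes, which also holds dpn, was low in scrib along with ato. Of 6 past the filter, 5 were at least 2-fold below Ras in scrib by their readings and 0 above it, against 14.2% lower and 9.26% higher among all kept genes. That count was 4 with levels raised to the filter value, against 11.5% of kept genes lower. The median of the 6 genes was −1.42 (−1.38 with levels raised, −0.66 on the identity-gene scale). The lowest were tap (−3.84) and ase (−3.14), genes of neuronal precursors. Next came dpn (−1.56), which encodes a bHLH repressor and is not a proneural gene. Then came l(1)sc (−1.28) and sc (−1.20), with ac at −0.52. In scrib tap (6.32), ase (5.83) and l(1)sc (5.02) read below the filter value, and l(1)sc did so in Ras too (6.30). In Sras mutants 1 and 2, tap lay at −1.74 and −2.17 and ase at −1.07 and −1.56 from Ras, while ac (0.32 and 0.41), l(1)sc (0.56 and 0.47) and sc (−0.06 and 0.10) lay nearer. The brain neuron markers had medians of −0.27, −0.20 and −0.62 from Ras in the 3 mutant arrays. Of the 6 markers, 4 lay below Ras and 2 above it in each of these arrays. The lowest was ChAT, a cholinergic neuron gene, at −2.04, −2.17 and −2.95, while brp lay at 0.58, 0.70 and 0.45. The part of brain neuron RNA in the levels of tap and ase was not tested.

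Photoreceptor genes, which act behind the furrow, were also low in scrib. Of 14 past the filter, 10 were at least 2-fold below Ras in scrib and 0 above it (median −1.84, and −1.19 on the identity-gene scale), against 14.2% and 9.26% of kept genes. The count was 9 with levels raised to the filter value, since lz read 5.56 in scrib, against 11.5% of kept genes lower. In Sras mutant 1, 2 were higher and 1 lower (4.04% and 9.77% of kept genes), and in Sras mutant 2, 2 were higher and 3 lower (4.96% and 9.95%). The gene gl, which encodes a transcription factor of cells behind the furrow, read 10.35 in Sras mutant 1, 10.16 in Sras mutant 2 and 6.54 in scrib, against 9.66 in Ras and 9.12 in WT control. The pan-neuronal gene elav, also of the brain, lay −0.81 from Ras in Sras mutant 1, −0.73 in Sras mutant 2 and −1.90 in scrib. The genes lz (1.42 and 1.33) and chp (1.26 and 1.04) were the highest in the Sras arrays, and pros (−1.41 and −1.51) was the lowest. In each Sras array 9 genes of this list lay above Ras and 5 below it. The list holds genes also expressed in the brain, elav and pros among them, and the part of brain RNA in their levels was not tested. On the quantile scale, retinal determination genes had 6 and 5 of 8 at least 2-fold above Ras in Sras mutants 1 and 2, against 4.04% and 4.96% of kept genes. These genes are part of the set that the identity-gene scale is centred on, so their counts are given on the quantile scale alone and depend on it. In scrib 2 were higher, eyg and toy, which lay just past 2-fold, and 3 lower, eya (−3.36), dac (−2.50) and so (−2.27), against 9.26% and 14.2% of kept genes.

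**Figure D4:**
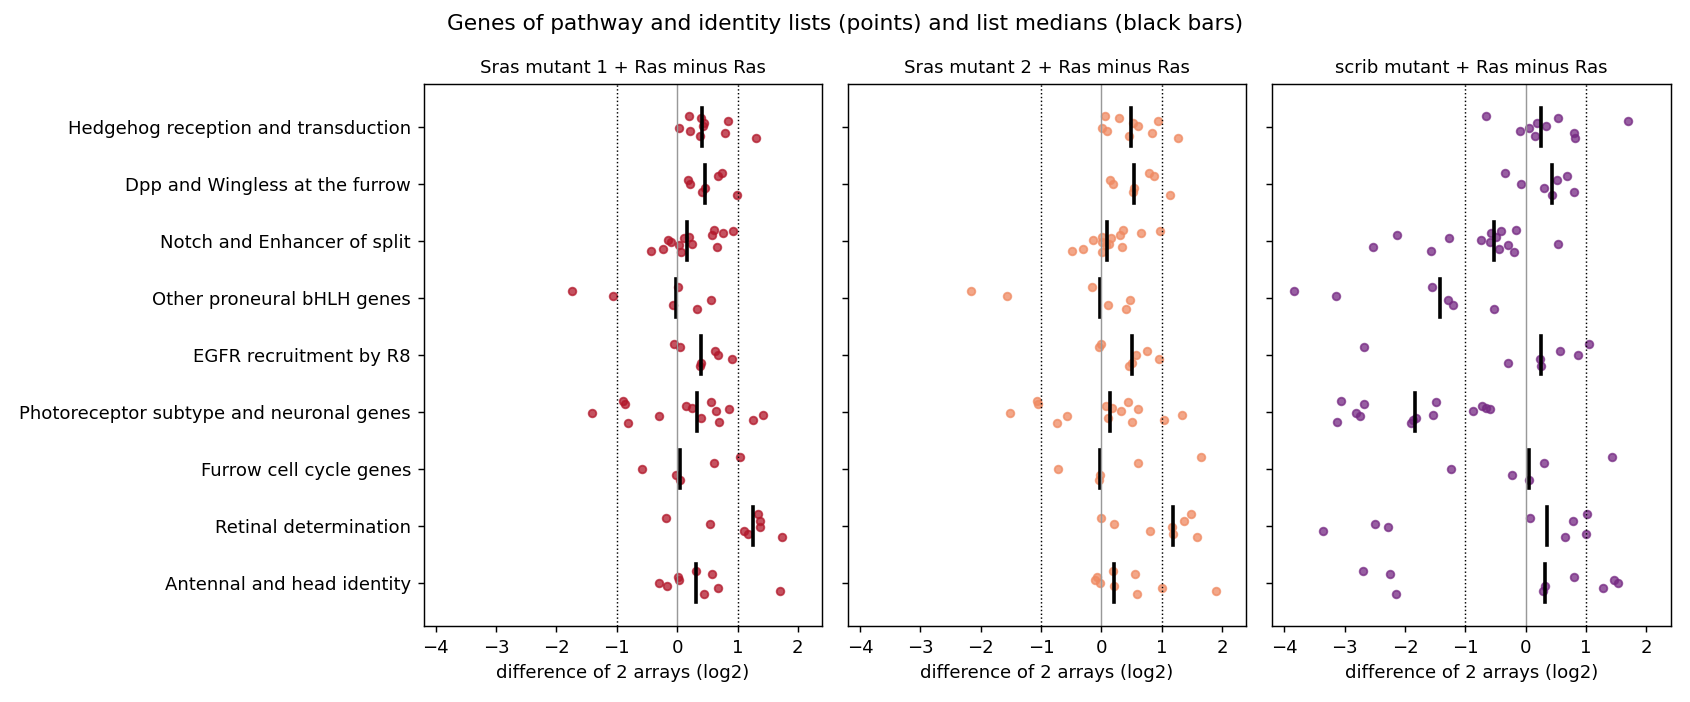
Difference from Ras in log2 (horizontal axes) for the genes past the filter (points) of 9 pathway and identity lists (rows) in Sras mutant 1, Sras mutant 2 and scrib, with list medians as black bars and 2-fold as dotted lines. In scrib the photoreceptor (median −1.84) and other proneural (−1.42) lists lie to the left, and the Hedgehog list (0.26) does not.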

How the data were processed

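Total RNA of eye-antennal discs or tumors, labelled with biotin, was measured on 5 arrays, 1 per group. The authors deposited 1 table of log2 values for 18952 probe sets. Their range (3.32 to 14.9) is the basis for calling them log2. For background correction, normalization and summary over probes, the method is not stated by any label or header used here. The number of arrays limits precision, and no test was possible.

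Array medians differed by up to 0.153 log2, above a limit of 0.1, so arrays were quantile normalized. Symbols came from the platform annotation, updated through gene identifiers (13543 of 13646 probe sets with 1 symbol matched a Release 6 table). The probe set with the highest mean stood for each gene, and genes were kept where the highest of 5 levels reached the 40th percentile (6.36). A call is a 2-fold difference. Members and lists were chosen with earlier results of these data known. All measured members were named, with the 3 nearest profiles for members spanning 1 log2 or more and the up to 3 highest and lowest genes of a list, from which the text takes some. The genes elav, repo, PPO1, PPO2, E(spl)malpha-BFM, E(spl)mbeta-HLH, E(spl)m2-BFM and E(spl)m5-HLH fall outside that rule and were chosen after their values were seen. The counting was tested on simulated data. Alternatives were 3 other scalings, mean probe sets, 2 other filters, thresholds of 1.5-fold and 3-fold and, added after the data were seen, the WT control baseline and levels raised to the filter value. The gene Sras read 9.19 and 9.05 in the Sras arrays, 9.65 in scrib, 9.40 in Ras and 9.56 in WT control, and scrib read 11.56, 11.51, 11.30, 10.76 and 10.56 in that order. With the lesions not given, neither checks a label. Python 3.11.15, NumPy 2.4.6, pandas 2.3.3 and matplotlib 3.10.9 were used.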

Additional observations from a re-analysis of the deposited data

How the results depend on the processing

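No paired analysis was possible because each group has 1 array, and no replicate could be left out. Counts of the 6 genes past 2-fold depended on these choices. Filtering on a gene's mean over the arrays, at the 50th percentile, removed sens and ro. That left 1 gene higher in Sras mutant 1 minus Ras (3.05% of all genes) and 1 lower in scrib minus Ras (9.87%). In each Sras array minus scrib 2 were higher (6.28% and 6.42% of all genes). In each Sras array minus WT control it was 0 (4.48% and 5.15% higher, 6.93% and 6.97% lower). In scrib minus WT control 1 was lower (10.4%). At 1.5-fold the count was 2 higher in Sras mutant 2 minus Ras (14.1% of all genes higher, 14.7% lower), 1 in Ras minus WT control (ato, lower; 2.76% higher, 4.27% lower), 2 higher in Sras mutant 2 minus WT control (16.0% higher, 15.2% lower), and 4 lower in scrib minus Ras and minus WT control (19.2% and 19.5% lower). At 3-fold it was 0 in Sras mutants 1 and 2 minus Ras (1.16% and 1.73% higher, 5.59% and 6.10% lower), 0 in Sras mutant 2 minus WT control (2.39% higher, 6.85% lower), 2 lower in scrib minus Ras (10.2% lower) and 3 higher in each Sras array minus scrib (4.19% and 4.18% higher). With levels raised to the filter value it was 2 in scrib minus Ras and 2 in scrib minus WT control (11.5% and 12.1% lower). With WT control in place of Ras as the baseline, Sras mutant 1 had 1 gene (ro, higher, with 5.75% of all genes higher). Centring on the 17 identity genes made 4.20% of the genes past 2-fold higher in Sras mutant 1 minus Ras (29.2% after quantile normalization), 4.87% in Sras mutant 2 minus Ras (33.2%), 83.9% in scrib minus Ras (39.6%), 14.8% in Ras minus WT control (34.0%, and 44.2% with arrays centred on their medians) and 1.61% and 1.59% in the Sras arrays minus scrib (62.3% and 65.4%). Minus WT control it was 2.80%, 2.95% and 73.9% (35.3%, 38.0% and 41.5%) for both Sras arrays and scrib. Under it Sras mutant 1 minus Ras had 1 gene (sens, lower) in place of 2 higher, against 19.0% of all genes lower. Sras mutant 2 minus Ras had sens in place of ato, against 22.4% lower. In scrib minus Ras 2 were lower (sens and ro), against 8.75% of all genes lower and 45.7% higher. Each Sras array minus WT control had sens lower (−1.33 and −1.42) in place of ro, where 30.5% and 38.6% of all genes were lower. Ras minus WT control had 1 (ato, lower), against 2.23%. The 4 genes past 2-fold in each Sras array minus scrib were 2 higher (ato and ro) and 2 lower (emc and da). Of all genes, 1.41% were higher in each, and 86.0% and 87.0% lower, so emc and da moved with most genes. That centring reversed hh in Sras mutants 1 and 2 minus scrib (−0.10 and −0.16), and the cause of these shifts was not tested. On the values as deposited, ato in scrib lay −1.44 from Ras. Averaging probe sets and leaving out the filter could not move the 6 genes, which have 1 probe set each and pass the filter.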

Other observations

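Genes of the cell cycle pattern around the furrow and of the EGFR signal sent by R8 were measured but belong in no comparison above. Of 5 cell cycle genes past the filter, trbl, which encodes an inhibitor of the mitotic phosphatase String, lay 1.05 from Ras in Sras mutant 1, 1.66 in Sras mutant 2 and 1.44 in scrib, and fzr, an activator of cyclin degradation, at −0.59, −0.71 and −1.23. The genes CycE (−0.01, −0.03 and −0.22) and rux (0.05, −0.04 and 0.05) lay close to Ras. Of 7 EGFR genes, phyl, which photoreceptor fate requires behind the furrow, read 9.51 in Sras mutant 1, 9.41 in Sras mutant 2 and 6.78 in scrib, against 9.46 in Ras and 9.21 in WT control. The feedback inhibitor genes aos and sty lay at 0.87 and 1.05 from Ras in scrib, so this list did not move as 1 group there. From WT control, aos in Ras lay at 1.09 and sty at 1.03.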
